A study of Mus musculus with 9 samples.

Results

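The genes described here are 53 protein-coding genes of mouse bone marrow-derived dendritic cells (BMDC) whose transcripts were at least 2-fold higher after 6 h of lysophosphatidic acid (LPA) but, on average, near the untreated level after 2 h. They were chosen from the measured values: mean CPM (a gene's count scaled by the total count of its library) of at least 2 at 6 h, a 6 h to untreated ratio of at least 2, and a 2 h to untreated ratio between 0.77 and 1.3. They made up 53 of the 10461 protein-coding genes with 2 CPM or more at 6 h, a share of 0.507%, out of 21349 protein-coding genes and 38887 rows in the counts table. RNA-seq was carried out on 3 groups of 3 libraries each: BMDC left untreated, BMDC after 2 h of LPA and BMDC after 6 h of LPA. The title places the work in a study of how LPA from ovarian tumors affects type I interferon responses. The labels give no LPA dose, vehicle, mouse strain or age, no time for the untreated cells, and nothing that says whether replicates came from separate animals or cultures. The spread between replicates may therefore be technical. Because all 3 group means entered the choice of genes, the differences between groups given below are descriptions of the chosen genes. The calls and standard errors printed for them come from a fit over all genes and are not independent evidence of the pattern.

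LPA is a small phospholipid that signals through G protein-coupled receptors on the cell surface. Genes that answer such signals are commonly sorted into early ones, switched on by transcription factors already present in the cell, and late ones, which often need factors that are made first. Dendritic cells grown from bone marrow take up and present antigen, and they carry receptors for complement fragments, lipid mediators and growth factors.

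Totals ran from 29628817 to 84596899 counts per library, and all 53 genes passed the filter on low counts that left 14363 genes for testing. The lowest count of any of the 53 genes in any library was 30. Of the 8 dendritic cell markers checked, all were above 1 CPM, with Itgax, which encodes the integrin CD11c, at 1352 CPM untreated and 1095 CPM at 6 h. Batf3, H2-Ab1, Flt3 and Cd74 were also lower at 6 h, while Ccr7 was higher (336 CPM untreated and 460.7 CPM at 6 h). Irf4 and Zbtb46 differed little. All 6 B cell markers and all 6 erythroid markers were under 1 CPM in each group, and so were 7 of 8 T and NK cell markers and 7 of 8 stromal markers. Macrophage markers were also expressed and went both ways: mean CPM was higher at 6 h for Csf1r (2237 untreated and 2685 at 6 h), Cd68 (702.4 and 828.8) and Mertk, and lower for Adgre1 (160.2 and 123.2), Mrc1, Fcgr1 and C1qa. The 6 plasmacytoid dendritic cell markers summed to 298.7 to 332.9 CPM untreated and 186.5 to 215.03 CPM at 6 h, most of it Bst2, and Siglech was near 0 in each group. The 8 granulocyte markers summed to 13.8 to 18.9 CPM untreated and 7.38 to 9.28 CPM at 6 h. Whether other cells had a part in the differences below was not tested. In bulk RNA more cells of a kind and more RNA per cell cannot be told apart.

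Of the 290 protein-coding genes that reached 2 CPM and were 2-fold or more higher at 6 h, 236 were above 1.3 times the untreated mean at 2 h already, 53 lay in the 0.77 to 1.3 band and 1 lay below it. In 118 of the 236 the 2 h mean was itself 2-fold or more higher. The 53 genes were thus 18.3% of those raised at 6 h. Their median ratio to untreated was 1.146 at 2 h, with a range from 0.806 to 1.29, and 2.18 at 6 h, with a range from 2.01 to 3.72. The 6 h mean was between 1.59 and 3.30 times the 2 h mean. Most ratios were moderate: 4 genes reached a ratio of 3 or more, 7 lay between 2.5 and 3, and 42 lay below 2.5.

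**Figure D1:**
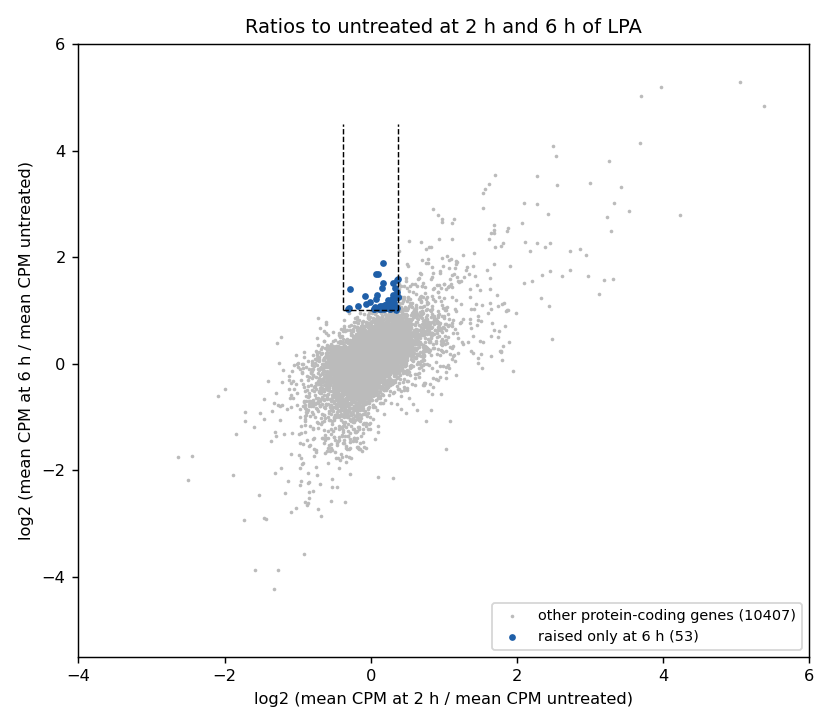
Log2 ratio of mean CPM to untreated at 2 h (horizontal) and at 6 h (vertical) for protein-coding genes with 2 CPM or more at 6 h. Each point is 1 gene, the 53 chosen genes are blue, and the dashed lines mark the limits of the choice; most of the blue points lie close to its lower edge, with 42 of 53 under a 6 h ratio of 2.5.

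In all 53 genes every 6 h library lay above every untreated library and above every 2 h library. Over all tested genes the 6 h libraries lay above the untreated ones in 36.2% and above the 2 h ones in 34.2%. Genes were called by the quasi-likelihood test of edgeR, adjusted over all tested genes after Benjamini and Hochberg. By this test 53 of 53 were higher at 6 h than untreated, where 26.4% of tested genes were, and 53 of 53 were higher at 6 h than at 2 h, where 24.3% were. The choice used these contrasts, so the counts only describe it. At 2 h, 3 of 53 were called higher than untreated and 0 lower, against 19.3% and 19.2% of all tested genes. Those 3 were Arfgef3, Arhgap24 and Fkbp11, which lie at the upper edge of the band. This count moved with single libraries: it was 14 without 2 h replicate 3, 6 without 2 h replicate 1, 2 higher and 4 lower without 2 h replicate 2, 1 without untreated replicate 2 or 3, and 2 without any one 6 h library. With DESeq2 it was 8 higher and 0 lower. In 48 of the 53 genes the 2 h and untreated libraries overlapped, which was so in 52.2% of tested genes. In the other 5, Arfgef3, Arhgap24, Adgrg3, Elovl7 and Tnnc1, each 2 h library lay above each untreated one.

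The 3 libraries at 2 h did not look alike for these genes. Replicate 2, the deepest library of the series, was the highest of the 2 h libraries in 51 of 53 genes, which it was in 44.9% of all tested genes. It lay above every untreated library in 49 of 53, against 39.6% of tested genes. For replicate 1 that count was 20 (34.2% of tested genes) and for replicate 3 it was 9 (33.4%). Replicate 3 lay below every untreated library in 22 of the 53 genes and replicate 1 in 16. The share of all tested genes below was not taken, so these counts are not shown to be particular to the 53. As a percentage of the way from the untreated mean to the 6 h mean, the genes stood at a median of 3.91% in replicate 1, 35.7% in replicate 2 and -4.41% in replicate 3. Measured from the mean of the other 2 h libraries, replicate 2 had covered a median of 36.0% of the distance to the 6 h level. This was not particular to these genes: among 106 genes lower only at 6 h by the mirror image of the rule, replicate 2 was the lowest 2 h library in 97 and had covered a median of 34.9%. How often replicate 2 was the lowest over all tested genes was not counted. The labels give no reason why this library stands apart, and none was tested.

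**Figure D2:**
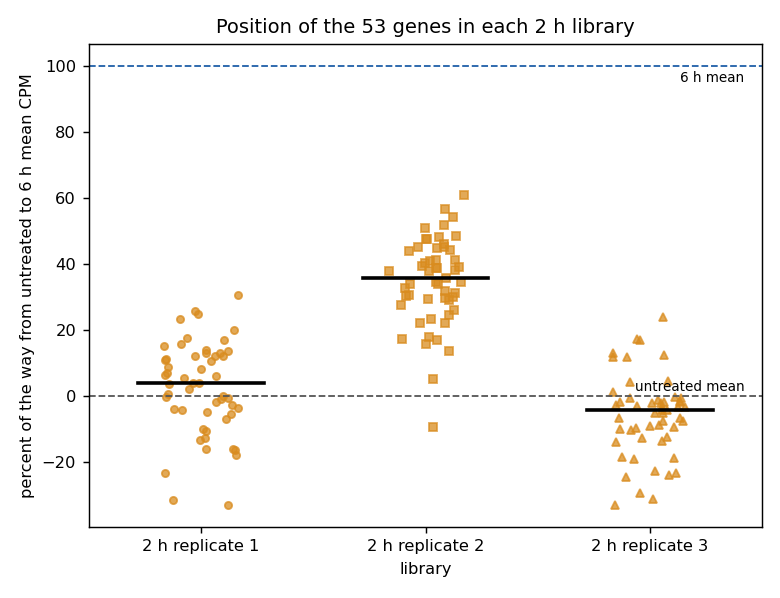
Position of each of the 53 genes in each 2 h library, as percent of the way from the untreated mean to the 6 h mean in CPM. Points are genes and the bar is the median: 3.91% in replicate 1, 35.7% in replicate 2 and -4.41% in replicate 3.

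The 2 h ratio was therefore also taken without 2 h replicate 2. The median over the 53 genes was then 0.996, with 26 genes above 1 and 27 below, where with all libraries 46 were above 1 and 7 below. With replicate 2 alone as the 2 h value, 41 of the 53 genes exceeded 1.3 times the untreated mean, with no share over all tested genes taken. Without replicate 2, 6 of the 53 fell under the band and would not have been chosen, namely Fam83f, Rnf144b, Slc26a11, Kdr, Arhgap22 and Vash2. Their 2 h ratios without it were 0.674 in Fam83f, 0.606 in Rnf144b, 0.712 in Slc26a11, 0.737 in Kdr, 0.645 in Arhgap22 and 0.681 in Vash2, values that are low by the way the 6 were picked. In each of the 6, 2 h replicates 1 and 3 stood below all untreated libraries.

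**Figure D3:**
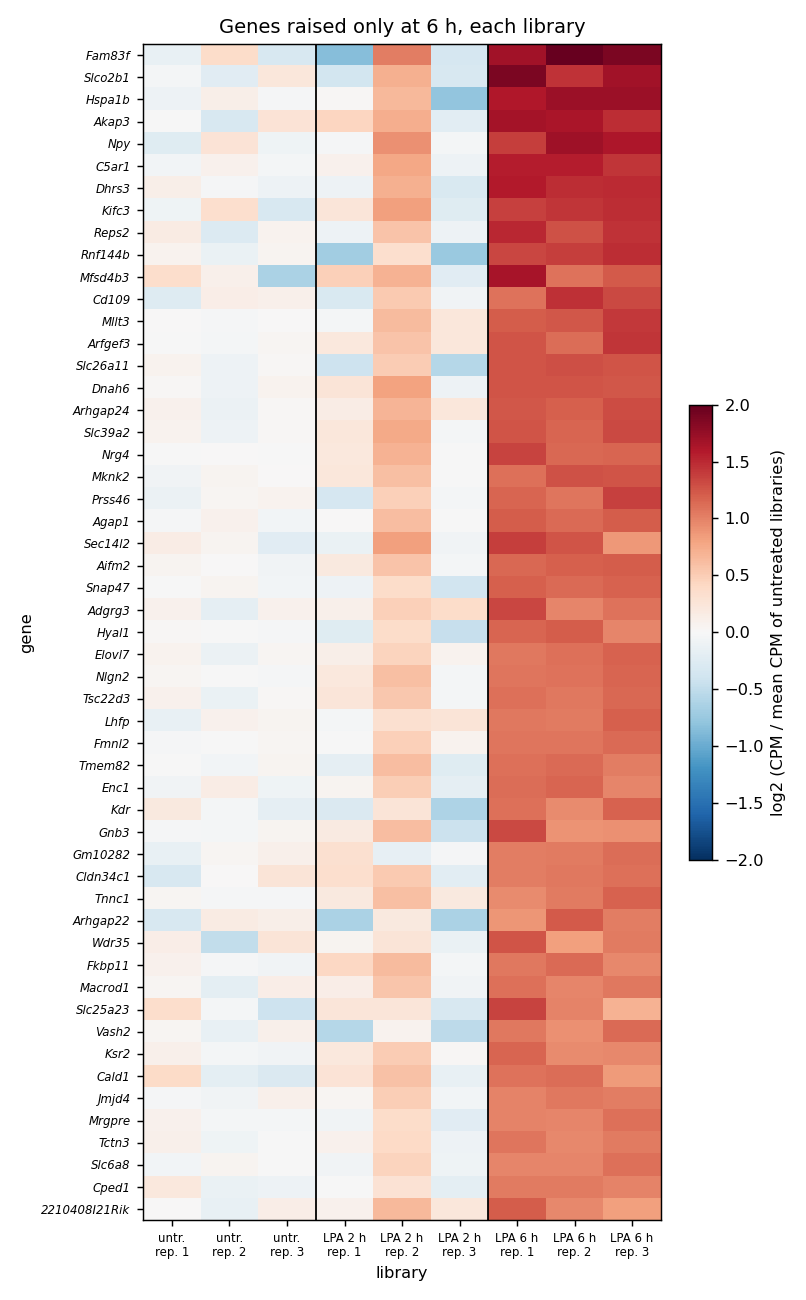
Log2 ratio of CPM to the untreated mean for each of the 53 genes (rows, in order of the 6 h ratio) in each of the 9 libraries (columns). All 6 h columns are red, 2 h replicates 1 and 3 are near white or blue, and 2 h replicate 2 is pale red in most rows.

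The largest ratios belonged to genes of unlike function. Fam83f, of a family of proteins that bind casein kinase 1, was the highest at 3.72, but from a low level, with 0.843, 1.21 and 0.754 CPM untreated, 0.522, 1.90 and 0.741 CPM at 2 h and 3.004, 3.995 and 3.44 CPM at 6 h. Its untreated libraries and 2 h replicates 1 and 3 were all below 1.3 CPM, and 2 h replicate 2 stood between these and the 6 h libraries. Slco2b1, an uptake transporter for organic anions such as steroid sulfates, stood at 1.31, 1.153 and 1.57 CPM untreated, 1.04, 2.21 and 1.08 CPM at 2 h and 4.96, 3.64 and 4.31 CPM at 6 h, a ratio of 3.20. Hspa1b, which encodes the stress-inducible chaperone HSP70, stood at 8.08, 9.37 and 8.55 CPM untreated, 8.76, 13.6 and 5.04 CPM at 2 h and 26.3, 28.5 and 28.3 CPM at 6 h, a ratio of 3.20. In 2 h replicate 3 it was under all untreated libraries and in replicate 2 over them. Akap3, a member of the family that anchors protein kinase A, stood at 0.78, 0.629 and 0.943 CPM untreated, 1.06, 1.3003 and 0.678 CPM at 2 h and 2.498, 2.423 and 2.19 CPM at 6 h, a ratio of 3.02 at the lower end of the levels followed here.

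Hspa1b has a near-identical copy, Hspa1a, so the division of reads between them is uncertain. Hspa1a stood at 6.56, 7.78 and 6.81 CPM untreated, 8.57, 13.7 and 5.42 CPM at 2 h and 25.1, 35.0 and 31.9 CPM at 6 h, a 6 h ratio of 4.36. Its 2 h ratio of 1.31 put it just past the band, though without 2 h replicate 2 it was 0.992. The estimated counts of the copies thus followed one course, and only the limit at 1.3 parted them. As the division of reads is uncertain, this does not show that each gene followed it. The constitutive relative Hspa8 was 2577 ± 42.8 CPM untreated, 1838 ± 98.1 CPM at 2 h and 2397 ± 17.3 CPM at 6 h (mean ± SD, n = 3 each).

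To show what lies before the start sites of genes with large ratios, the 250 bases upstream of the RefSeq start are given 5′ to 3′ on the gene's strand (RefSeq, GRCm38.p6), with matches to the searched motifs in capitals. The Hspa1b, Npy and C5ar1 windows each hold a CCAAT box read on the opposite strand, and the Slco2b1 window the core of a cAMP-response element (TGACGT) read on the opposite strand. Slco2b1 has 3 RefSeq start windows; of the others, 1 held no match and 1 held a CCAAT box 155 bases before its start.
Hspa1b, chr17:34959239-34959488, minus strand: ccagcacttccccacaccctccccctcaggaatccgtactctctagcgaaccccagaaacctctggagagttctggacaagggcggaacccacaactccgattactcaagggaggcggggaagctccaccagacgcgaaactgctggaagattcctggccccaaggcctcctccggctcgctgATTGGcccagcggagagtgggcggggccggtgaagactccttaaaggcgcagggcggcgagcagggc
Npy, chr6:49822460-49822709, plus strand: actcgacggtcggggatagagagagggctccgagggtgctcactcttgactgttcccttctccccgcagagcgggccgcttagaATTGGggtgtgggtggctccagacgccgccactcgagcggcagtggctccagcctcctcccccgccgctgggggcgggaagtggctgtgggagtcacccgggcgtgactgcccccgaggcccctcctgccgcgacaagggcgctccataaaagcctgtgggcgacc
C5ar1, chr7:16259339-16259588, minus strand: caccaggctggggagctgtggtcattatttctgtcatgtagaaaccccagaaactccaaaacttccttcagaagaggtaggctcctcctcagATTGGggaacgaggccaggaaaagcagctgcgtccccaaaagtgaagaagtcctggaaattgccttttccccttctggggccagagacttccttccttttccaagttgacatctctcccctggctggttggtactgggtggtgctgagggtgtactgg
Slco2b1, chr7:99711341-99711590, minus strand: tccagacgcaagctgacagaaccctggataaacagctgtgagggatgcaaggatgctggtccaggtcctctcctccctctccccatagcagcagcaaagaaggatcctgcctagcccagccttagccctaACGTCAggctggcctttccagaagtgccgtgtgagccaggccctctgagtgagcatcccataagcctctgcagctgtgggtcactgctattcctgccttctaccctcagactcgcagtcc
The match lies 67 bases before the start in Hspa1b, 166 in Npy, 158 in C5ar1 and 120 in Slco2b1.

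Motifs were searched on both strands from 250 bases before to 50 after the start, in the 41 of 53 genes that the RefSeq table matched. The CCAAT box was in 20 of 41, or 48.8%, against 43.1% of 8401 matched protein-coding genes with 2 CPM or more at 6 h and 37.4% of all 32851 promoters. The element TGACGT was in 12.2% against 13.9% of those expressed genes and 7.51% of all promoters, and the AP-1 site TGANTCA in 9.76% against 6.11% and 7.81%. The E-box CACGTG was in 4.88% against 12.3% and 7.15%. The hypoxia element ACGTG, which every E-box contains, was in 17.1% against 30.2% and 19.6%. The nuclear receptor hexamer AGGTCA was in 14.6% against 14.6% and 16.3%, and the TATA box TATAAA in 9.76% against 8.14% and 13.6%. These shares are descriptions, and a match is not a bound site. The 41 genes shared no one motif of the 7 searched.

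Among receptors and secreted ligands there were 9 genes, with 6 h ratios from 2.03 to 2.97. Npy encodes neuropeptide Y, a peptide transmitter, and stood at 13.98, 19.97 and 15.6 CPM untreated, 16.3, 31.1 and 16.1 CPM at 2 h and 43.1, 53.8 and 50.5 CPM at 6 h. Its 2 h replicate 2 lay between the 6 h libraries and the rest. C5ar1 encodes the receptor for the complement fragment C5a, which draws phagocytes to sites of complement activation. It stood at 59.8, 65.9 and 60.6 CPM untreated, 66.2, 107 and 58.0 CPM at 2 h and 184, 184 and 167 CPM at 6 h. Its 6 h log2 fold change was 1.48 ± 0.21 (SE). Replicates 1 and 3 at 2 h were close to the untreated libraries.

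Kdr encodes VEGF receptor 2 and is best known from endothelial cells. It stood at 30.8, 26.2 and 23.7 CPM untreated, 22.1, 32.0 and 17.6 CPM at 2 h and 57.9, 51.6 and 60.7 CPM at 6 h, so that 2 h replicates 1 and 3 lay below all untreated libraries. Of the 6 endothelial markers checked, Kdr was the only one of the 53 genes. Tek and Emcn were under 1 CPM in each group, Pecam1 was 2.16 CPM untreated and 0.647 CPM at 6 h, Cdh5 4.05 and 4.35 CPM, and Vwf 223.6 and 155.9 CPM. Summed with Kdr itself, the 6 markers ran from 243.9 to 270.5 CPM untreated and from 215.7 to 219.99 CPM at 6 h. The part of other cells in the Kdr value was not tested.

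The growth factor gene Nrg4, which encodes a ligand of the receptor ErbB4, stood at 5.503, 5.52 and 5.49 CPM untreated, 6.398, 8.90 and 5.47 CPM at 2 h and 14.1, 12.2 and 12.3 CPM at 6 h. It lies partly over Fbxo22 on the opposite strand, and in libraries that do not keep the strand such reads cannot be told apart. Cd109, which encodes a membrane protein that binds TGF-beta, stood at 2.78, 3.67 and 3.56 CPM untreated and 7.05, 9.23 and 8.31 CPM at 6 h. Nlgn2 encodes an adhesion protein of inhibitory synapses and stood at 14.6, 14.1 and 13.9 CPM untreated and 29.8, 30.2 and 31.7 CPM at 6 h. The receptor genes Mrgpre (14.8, 13.6 and 13.6 to 27.8, 27.5 and 30.1 CPM) and Adgrg3 (2.07, 1.72 and 2.07 to 4.93, 3.87 and 4.14 CPM) both belong to the G protein-coupled class. In the list of orphan and adhesion receptors that holds Adgrg3, 18 of 55 tested rose and 13 fell at 6 h by the edgeR test, where 26.4% and 25.7% of all tested genes did, with a median log2 fold change of 0.03. Vash2, a relative of the angiogenesis regulator vasohibin, stood at 4.91, 4.30 and 5.11 CPM untreated, 3.20, 5.04 and 3.30 CPM at 2 h and 9.89, 8.99 and 10.4 CPM at 6 h, with 2 h replicates 1 and 3 below all untreated libraries.

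**Figure D4:**
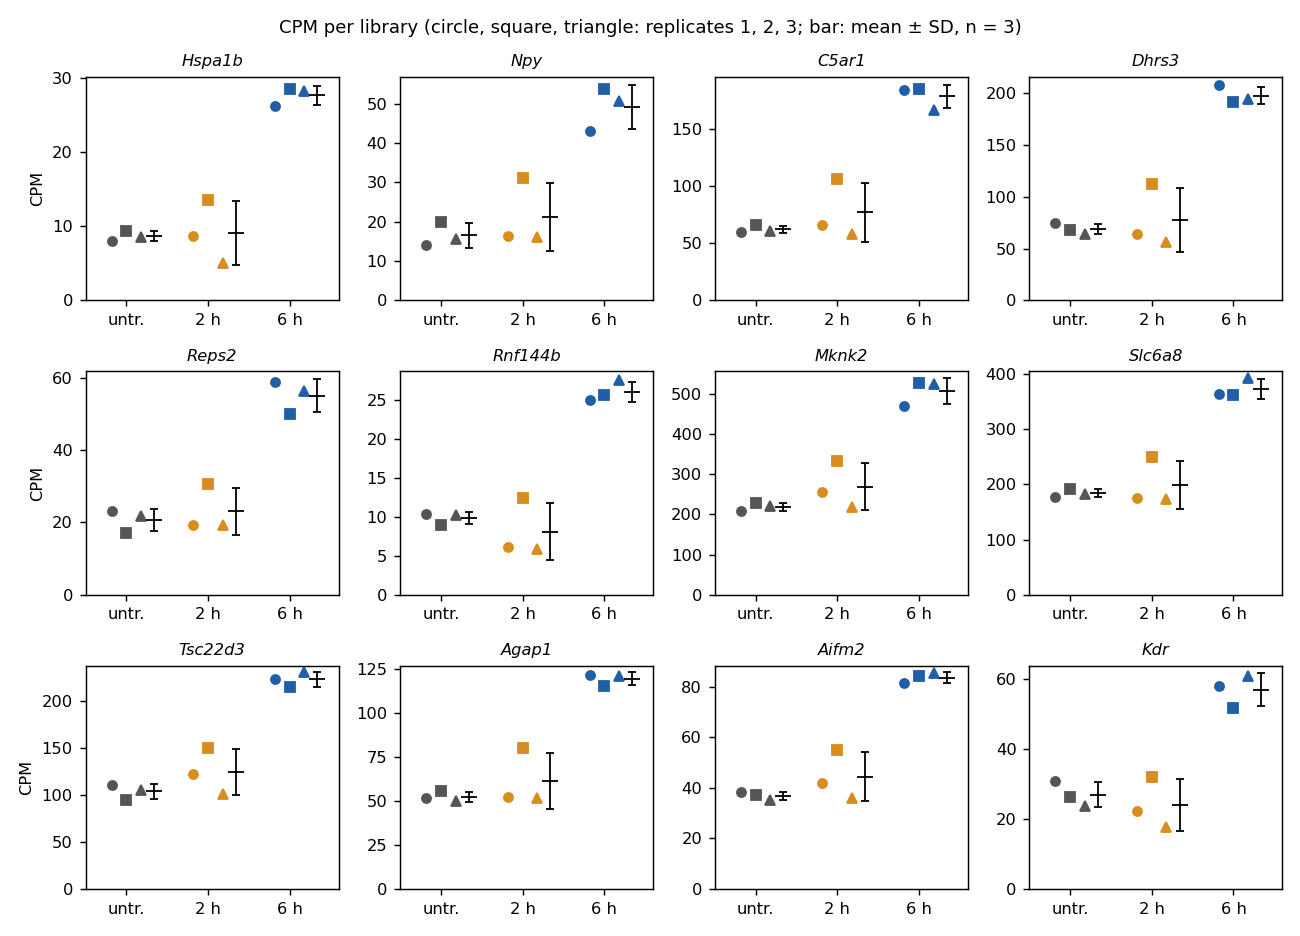
CPM in each library for 12 of the 53 genes (circle, square and triangle for replicates 1, 2 and 3; bar for mean ± SD, n = 3). In each panel the 6 h points lie above all others, and the square at 2 h, replicate 2, is the highest 2 h point.

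The transporters numbered 6, with 6 h ratios from 2.03 to 3.20. Slc6a8, which carries creatine into cells, was the most abundant of them at 177, 192 and 183 CPM untreated, 175, 249 and 174 CPM at 2 h and 364, 363 and 393 CPM at 6 h. Its 6 h libraries were far above the others, while 2 h replicates 1 and 3 were below all untreated values. Slc26a11, a sulfate and chloride carrier, stood at 5.63, 5.0001 and 5.43 CPM untreated, 3.999, 7.64 and 3.62 CPM at 2 h and 12.9, 13.1 and 12.8 CPM at 6 h, with the same low values in 2 h replicates 1 and 3. Slc39a2, a zinc importer of the ZIP family, had 3.88, 3.47 and 3.79 CPM untreated and 8.84, 8.29 and 9.26 CPM at 6 h. Slc25a23, a mitochondrial ATP-Mg/phosphate carrier, had 1.92, 1.47 and 1.13 CPM untreated and 3.85, 2.996 and 2.44 CPM at 6 h, with the lowest 6 h library close to the highest untreated one. Mfsd4b3 had 1.497, 1.26 and 0.754 CPM untreated and 3.68, 2.48 and 2.74 CPM at 6 h. Among 239 tested solute carrier genes, 79 rose and 63 fell at 6 h by the edgeR test, close to the 26.4% and 25.7% of all tested genes. Their median was 0.06 on the log2 scale against 0.01 for all tested genes. Of the 239, 5 are among the 53, where all 14363 tested genes hold the 53. This count was not tested.

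Intracellular signalling genes numbered 5. Mknk2 encodes a kinase that acts downstream of MAP kinases and phosphorylates the translation factor eIF4E, and it was the most abundant of the 53. It stood at 209, 228 and 219.9 CPM untreated, 257, 332 and 218 CPM at 2 h and 469, 527 and 524 CPM at 6 h, and the fold change at 6 h was 1.17 ± 0.13 on the log2 scale (SE). Replicate 1 at 2 h also lay above the untreated libraries here, and replicate 3 among them. Rnf144b, an E3 ubiquitin ligase, stood at 10.3, 8.97 and 10.2 CPM untreated, 6.07, 12.4 and 5.87 CPM at 2 h and 24.98, 25.6 and 27.5 CPM at 6 h, with 2 h replicates 1 and 3 below all untreated libraries and a 6 h level 2.64 times the untreated one. Ksr2, a scaffold of the Raf to MAP kinase cascade, stood at 23.8, 21.7 and 21.3 CPM untreated, 25.7, 31.8 and 22.5 CPM at 2 h and 50.1, 42.7 and 43.3 CPM at 6 h. Gnb3, a G protein beta subunit, stayed low, at 1.08, 1.06 and 1.13 CPM untreated and 2.73, 2.03 and 2.06 CPM at 6 h.

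The largest group, 14 genes, has roles in small GTPase control, the cytoskeleton, cilia and membrane traffic, with 6 h ratios from 2.03 to 2.68. Fmnl2, a formin that builds actin filaments at the leading edge, stood at 74.96, 75.7 and 78.8 CPM untreated, 76.3, 107 and 80.1 CPM at 2 h and 161, 160.4 and 169 CPM at 6 h. Agap1, a GTPase-activating protein for Arf that works in endosomal traffic, stood at 51.5, 55.5 and 50.3 CPM untreated, 52.5, 80.2 and 51.9 CPM at 2 h and 122, 115 and 121 CPM at 6 h. In both, 2 h replicates 1 and 3 were within a few CPM of the untreated libraries. Arhgap24, which turns off Rac, stood at 19.9, 17.2 and 18.9 CPM untreated, 20.7, 29.9 and 21.8 CPM at 2 h and 44.2, 42.8 and 45.9 CPM at 6 h. Its relative Arhgap22 took another course, with 9.17, 12.8 and 12.4 CPM untreated, 7.41, 13.2 and 7.41 CPM at 2 h and 21.2, 27.0 and 23.4 CPM at 6 h. Arhgap24 was at a 2 h ratio of 1.29, the highest of the 53, and Arhgap22 at 0.812, the second lowest.

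Reps2, which takes part in receptor endocytosis, stood at 23.1, 17.2 and 21.9 CPM untreated, 19.3, 30.7 and 19.2 CPM at 2 h and 58.9, 50.05 and 56.5 CPM at 6 h. Arfgef3 stood at 12.7, 12.5 and 13.1 CPM untreated, 14.8, 18.9 and 14.9 CPM at 2 h and 30.6, 27.8 and 34.5 CPM at 6 h, and Enc1, an actin-binding adaptor of ubiquitin ligases, at 16.5, 19.1 and 16.3 CPM untreated and 37.4, 38.8 and 34.1 CPM at 6 h. The cilium genes Tctn3 (12.2, 10.8 and 11.4 to 24.1, 22.2 and 23.5 CPM) and Wdr35 (1.77, 1.153 and 1.93 to 3.88, 2.85 and 3.31 CPM), the axonemal dynein gene Dnah6 (1.39, 1.27 and 1.45 to 3.27, 3.29 and 3.25 CPM) and the kinesin gene Kifc3 (0.991, 1.32 and 0.838 to 2.70, 2.81 and 2.92 CPM) were lower in level. So were Cald1 (3.31, 2.22 and 2.07 to 5.40, 5.47 and 4.58 CPM), which encodes the actin regulator caldesmon, and Tnnc1 (1.05, 1.003 and 1.01 to 1.96, 2.11 and 2.32 CPM), which encodes a troponin. Tnnc1 lies wholly within Nisch on the opposite strand, whose mean was 350.7 CPM untreated, 285.2 CPM at 2 h and 359.5 CPM at 6 h, so the Tnnc1 counts cannot be told apart from reads of Nisch. Of 59 tested Arhgap, Arhgef and Dock genes, 12 rose and 18 fell at 6 h by the edgeR test, where 26.4% and 25.7% of all tested genes did, and the median was -0.05 on the log2 scale. Of these 59 genes, 2 are among the 53, where all 14363 tested genes hold the 53. This count was not tested either.

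Metabolic enzymes and lipid proteins numbered 6. Dhrs3 encodes a reductase that turns retinal back into retinol and so limits retinoic acid. It stood at 74.8, 67.9 and 64.6 CPM untreated, 64.2, 113 and 56.2 CPM at 2 h and 208, 192 and 194 CPM at 6 h, and the fold change at 6 h was 1.48 ± 0.24 on the log2 scale (SE), with 2 h replicates 1 and 3 below all untreated libraries. In the list of retinoid and vitamin D genes, 5 of 14 tested rose and 3 fell at 6 h by the edgeR test, against 26.4% and 25.7% of all tested genes, and the list's median was 0.13 on the log2 scale. Beside Dhrs3 these were Vdr (0.60), Rara (0.57), Rarg (0.40) and Rxra (0.14), all receptor genes, and on the other side Cyp26b1 (-2.35), which breaks down retinoic acid, Aldh1a2 (-1.51), which makes it, and Dhrs9 (-0.26), as log2 fold changes. Cyp26b1 was low in level, at a mean of 0.885 CPM untreated and 0.183 CPM at 6 h. Aifm2 encodes FSP1, an oxidoreductase that regenerates coenzyme Q and guards against ferroptosis, and stood at 38.5, 37.0 and 35.1 CPM untreated, 42.0, 55.0 and 36.0 CPM at 2 h and 81.3, 84.1 and 85.6 CPM at 6 h. Elovl7, an elongase of long fatty acids, stood at 14.02, 12.2 and 13.8 CPM untreated, 14.4, 18.2 and 14.05 CPM at 2 h and 27.6, 28.5 and 30.3 CPM at 6 h, with the smallest SE of the 53 at 6 h (1.08 ± 0.09). Hyal1, a lysosomal hyaluronidase, stood at 2.99, 2.95 and 2.91 CPM untreated, 2.49, 3.81 and 2.14 CPM at 2 h and 6.65, 6.86 and 5.84 CPM at 6 h. It overlaps Naa80 on the same strand, which was 12.3 CPM untreated and 22.0 CPM at 6 h. Macrod1 and Sec14l2 stayed under 5 CPM.

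Transcription and chromatin were represented by 3 genes. Tsc22d3, which encodes the glucocorticoid-induced leucine zipper GILZ, stood at 110.4, 94.96 and 106 CPM untreated, 123, 150.0 and 101 CPM at 2 h and 223, 215 and 231 CPM at 6 h. In the list of glucocorticoid and circadian output genes that holds it, 9 of 17 tested rose and 3 fell at 6 h, and 10 rose and 5 fell at 2 h, by the edgeR test. Over all tested genes 26.4% rose and 25.7% fell at 6 h, and 19.3% rose and 19.2% fell at 2 h. The list's median log2 fold change was 0.28 at 6 h and 0.29 at 2 h. Of those, Ddit4 was at a log2 fold change of 2.62 at 2 h and 1.61 at 6 h, Per2 at 1.13 and 1.40 and Cry1 at 0.62 and 1.46. Called lower at both times were Fkbp5, a glucocorticoid target, at -0.36 and -0.30, and Cebpd at -0.98 and -0.60. Tsc22d3 was the only list member with the delayed course by the rule. Mllt3, a subunit of the super elongation complex, stood at 9.11, 8.95 and 9.11 CPM untreated, 8.81, 14.04 and 10.6 CPM at 2 h and 20.9, 21.5 and 24.2 CPM at 6 h. Jmjd4, a protein hydroxylase of the JmjC family, stood at 6.81, 6.56 and 7.40 CPM untreated, 7.08, 9.72 and 6.69 CPM at 2 h and 13.7, 14.4 and 14.1 CPM at 6 h.

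Jmjd4 and Snap47 are neighbours on chromosome 11 (GRCm38, chr11:59450045-59458567 and chr11:59407134-59451186), read in opposite directions, and their RefSeq start sites are 11 bases apart. Snap47, a SNARE protein of vesicle traffic, stood at 7.65, 8.01 and 7.35 CPM untreated, 7.15, 9.89 and 5.91 CPM at 2 h and 17.6, 16.8 and 17.4 CPM at 6 h. In 2 h replicates 1 and 3 Jmjd4 lay among the untreated libraries and Snap47 below them. In the GENCODE models they overlap by 1142 bases, where reads of one cannot be told apart from reads of the other. The window upstream of Jmjd4 is given because it also holds the start of Snap47, 11 bases before that of Jmjd4, with an AGGTCA hexamer in capitals 50 bases before the Jmjd4 start.
Jmjd4, chr11:59449795-59450044, plus strand: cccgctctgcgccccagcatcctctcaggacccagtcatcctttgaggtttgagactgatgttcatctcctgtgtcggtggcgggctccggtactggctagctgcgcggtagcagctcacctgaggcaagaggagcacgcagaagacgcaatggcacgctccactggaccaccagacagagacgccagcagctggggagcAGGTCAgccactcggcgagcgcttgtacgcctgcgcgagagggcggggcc
No other pair of the 53 overlapped. Adgrg3 and Kifc3 on chromosome 8 were the other pair within 1 Mb, with 54578 bases between them.

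Besides Hspa1b, protein folding was represented by Fkbp11, a prolyl isomerase of the secretory pathway. It stood at 14.1, 13.1 and 12.7 CPM untreated, 17.7, 20.7 and 13.01 CPM at 2 h and 27.6, 29.2 and 25.8 CPM at 6 h, with a 2 h ratio of 1.29. The remaining 8 genes have other or little described roles and lay between 2.07 and 12.2 CPM at 6 h. Tmem82 was the highest of them at 5.76, 5.58 and 5.97 CPM untreated, 5.08, 8.85 and 4.89 CPM at 2 h and 12.3, 12.7 and 11.8 CPM at 6 h, and the protease gene Prss46 stood at 2.09, 2.32 and 2.39 CPM untreated and 5.06, 4.77 and 5.85 CPM at 6 h. Gm10282 was, with Slc25a23, one of the genes in which 2 h replicate 2 was not the highest 2 h library, at 3.11, 2.22 and 2.44 CPM. Cped1, Lhfp, Cldn34c1 and 2210408I21Rik stood under 4 CPM at 6 h, and there the counting error weighs more.

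C5ar1 belongs to a list of complement, coagulation and fibrinolysis genes, of which 28 were tested. At 6 h 8 rose and 9 fell, and at 2 h 5 rose and 4 fell, by the edgeR test, with median log2 fold changes of 0.03 and 0.09. These counts lie near the shares of all tested genes, 26.4% and 25.7% at 6 h and 19.3% and 19.2% at 2 h. The second C5a receptor gene, C5ar2, stood at 8.18, 7.02 and 7.33 CPM untreated, 9.61, 15.3 and 7.22 CPM at 2 h and 29.3, 26.6 and 24.96 CPM at 6 h, and it rose at 6 h by a log2 fold change of 1.802. Its 2 h ratio of 1.43 kept it out of the 53, and without 2 h replicate 2 it was 1.12. C3ar1, the receptor gene for C3a, was at -0.37 at 2 h and 0.21 at 6 h, both called. The C1q genes C1qa (-0.46), C1qb (-0.25) and C1qc (-0.34) fell at 6 h. The 2 receptor genes for C5a were thus the complement genes with the largest rises at 6 h in the list, outside F5 (4.08), the gene of coagulation factor V.

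Several lists with changed genes held none of the 53. The 53 were only 0.507% of the protein-coding genes with 2 CPM or more at 6 h. Lists of these sizes would thus hold few or none in any case, and the absence is not a result about them. In the list of cAMP and CREB response genes 18 of 22 tested rose at 2 h and 19 at 6 h, with median log2 fold changes of 1.55 and 1.13. Of 26 PPAR target and fatty acid oxidation genes 19 rose at 2 h and 19 at 6 h, with medians of 0.26 and 0.54. Of 348 tested genes with Zfp symbols 81 rose and 51 fell at 2 h, and 127 rose and 28 fell at 6 h, with medians of 0.06 and 0.15. In the NRF2 antioxidant list 1 of 24 rose and 18 fell at 6 h, with a median of -0.67, where 25.7% of tested genes fell. All these counts are by the edgeR test, where 19.3% of tested genes rose at 2 h and 26.4% at 6 h.

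The values near the limits show how far the choice depends on them. Just inside the 6 h limit were 2210408I21Rik (ratio 2.01) and Cped1 (2.03), and just outside were Fgf11 (1.995) and Purg (1.99). Inside the upper 2 h limit were Arhgap24 (1.295) and Akap3 (1.29), and outside were Pex11a and Slc37a2 (1.302 each). Inside the lower 2 h limit were Vash2 (0.806) and Arhgap22 (0.812), and the 1 gene outside it was listed at 0 at 2 h. At the level limit 2210408I21Rik (2.07 CPM) and Tnnc1 (2.13 CPM) were inside, and Gfod2 (1.95 CPM) and Rnf227 (1.87 CPM) outside. With TMM-scaled library sizes 41 of the 53 genes met the rule. The 12 that did not were at ratios of 1.96 to 1.998 at 6 h (among them Slc6a8, Ksr2, Mrgpre, Jmjd4 and Tctn3) or just over 1.3 at 2 h (Akap3 and Arhgap24).

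With 1 library left out, the rule chose from 32 to 83 genes. Only 14 of the 53 were chosen whichever library was left out: Slco2b1, Hspa1b, Dhrs3, Reps2, Cd109, Prss46, Agap1, Snap47, Hyal1, Elovl7, Lhfp, Fmnl2, Tmem82 and Enc1. Without 2 h replicate 2 the rule chose 83 genes, 47 of them among the 53. Without 2 h replicate 3 it chose 32, all among the 53.

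**Figure D5:**
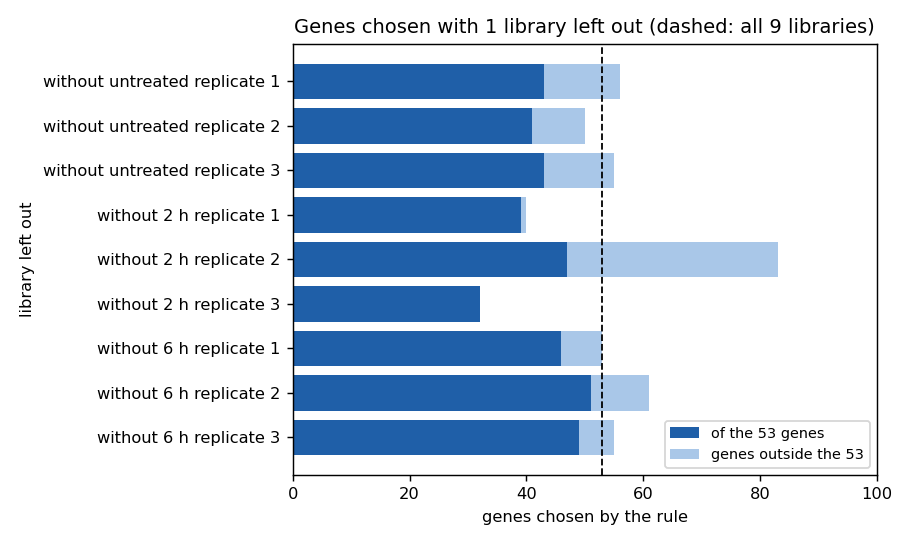
Number of genes chosen by the rule with each library left out in turn; dark bars count genes of the 53, light bars other genes, and the dashed line marks 53. The longest bar is without 2 h replicate 2 (83 genes, 47 of them among the 53) and the shortest without 2 h replicate 3 (32 genes).

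The same measure was then read in libraries that had no part in the choice, by applying the rule to 6 libraries and looking at the libraries of the replicate number left out. Of 42 genes chosen without replicate 1, 29 were 2-fold or more higher at 6 h in that replicate (69.0%), where 3.02% of all 10454 genes at that level were. Of 90 genes chosen without replicate 2 it was 72 (80.0%, against 2.93%), and of 35 chosen without replicate 3 it was 24 (68.6%, against 2.95%). Only 34 of the 42 genes, 40 of the 90 and 29 of the 35 were among the 53. These shares therefore describe the lists chosen on 6 libraries and not the 53 genes themselves. For those lists the 6 h part of the pattern was found again in libraries not used to choose them. As the replicates may be technical, this may show only that the measurement repeats. The 2 h part was not found in replicate 2: there 78 of the 90 genes (86.7%, against 12.2% of all genes) were over 1.3 times the untreated library at 2 h, and 11 lay in the band. In replicate 1, 34 of 42 lay in the band, 2 over it and 6 under it, and in replicate 3, 23 of 35 lay in it, 2 over and 10 under. Of all genes 78.8% lay in the band in replicate 1 and 77.2% in replicate 3. The count in replicate 1 is near that share and the count in replicate 3 below it. Staying in the band at 2 h was thus no more common in these genes than in all genes, which were not matched to them by level. The 53 had a low untreated level, at a median of 5.77 CPM against 30.6 CPM in all. Whether this moved the shares was not tested. Over the band were 4.76% of the chosen genes in replicate 1 and 5.71% in replicate 3, against 9.96% and 9.62% of all genes. The share of all genes under the band was not taken, so the 10 under it in replicate 3 stand without it. All criteria were met in the left-out libraries by 24 of 42, 5 of 90 and 18 of 35 genes.

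The 53 genes were spread over 18 chromosomes, with 6 on chromosome 6, 5 on chromosome 11 and 4 on X. Their gene bodies had a median span of 31651 bases, against 25713 in the other 237 genes raised at 6 h, 24949 in the 199 genes raised 2-fold or more at 2 h and 24349 in all 10461 protein-coding genes at 2 CPM. A span of 100000 bases or more was found in 18 of the 53 (33.96%), in 17.7% of the other genes raised at 6 h, in 15.1% of the genes raised at 2 h and in 11.99% of all. The longest were 2210408I21Rik, Agap1, Arhgap24, Ksr2, Fmnl2, Cped1 and Mllt3. The longest annotated transcript did not follow this, with a median of 3153 bases against 3273 in all. Their untreated level was low, at a median of 5.77 CPM against 30.6 CPM in all, and close to the 6.32 CPM of the other genes raised at 6 h. These are medians and shares of a list chosen from the values, given without a test.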

How the data were processed

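RNA was measured in 9 libraries of untreated and LPA-treated BMDC. The table the authors deposited holds unscaled estimated counts, rounded to whole numbers. The submitters' processing notes name RSEM 1.2.3, DESeq2 and the build mm10; no source used here names an aligner or annotation. Per the labels' protocols the libraries were non-stranded. Rows list Ensembl transcripts, and 37776 of 38887 matched 1 gene of GENCODE M21 (GRCm38, the assembly that mm10 names), with 98.5% of counts. CPM used column totals; SD is over 3 libraries.

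Log2 fold changes, SE (fold change over the square root of F) and calls come from edgeR 4.0.16 (filterByExpr with minimum count 10, TMM factors of 0.974 to 1.03, glmQLFit with robust = TRUE, glmQLFTest, R 4.3.3), fitted on all 9 libraries without covariates, with calls at an adjusted p under 0.05. DESeq2 1.42.0 was an alternative. Same-numbered libraries deviated together at 6 h against untreated (correlations 0.133 to 0.16), so the numbers were taken to pair them there, from the data and not the labels. At 2 h against untreated the same-numbered correlations were 0.148, 0.0919 and 0.195, and those of unlike numbers were all negative (-0.15 to -0.0103). The correlations are of deviations from group means, so positive same-numbered values make the unlike ones negative on average. The sign of the unlike ones is thus no separate evidence. By the same-numbered values the numbers went together there as well, though the main fit did not use them. Between the times the same-numbered correlations were 0.125, 0.0299 and 0.101, and unlike numbers reached 0.0597 and 0.0782, so the pairing is less clear there. Libraries of a group were compared by chi-square over genes (7.2 to 33.3 per degree of freedom), and no 2 held the same counts within sampling noise.

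The genes and lists were chosen with earlier results of these data known. Genes were named by rule: the 15 with the largest 6 h ratio, the 15 highest at 6 h, list members, genes beside each limit and members of role groups, which were assigned by hand once the genes were known. Other genes named with values (from the lists, the marker sets, the HSP70 copies and overlapping genes) and the Jmjd4 window were chosen after their values were seen.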

Additional observations from a re-analysis of the deposited data

How the results depend on the processing

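The number of genes raised only at 6 h was 53. It was 97 with a wider 2 h band (0.67 to 1.5), 24 with a narrower one, 113 with a 6 h fold of 1.8 and 11 with a fold of 2.5. Leaving out libraries, singly or by replicate number, gave 32 to 90. With TMM or DESeq2 scaling it was 41, with the median of 3 libraries 70 (41 of them among the 53), with at least 1 CPM 61, with at least 5 CPM 36, and over all gene types 54. With the replicate number as a block (replicate block), genes called were 6135 in place of 5525 at 2 h, 8036 in place of 7472 at 6 h and 7588 in place of 6991 between the times, and all 53 genes were called at 6 h in both fits, so the pairing changed no call of theirs there. Leaving out 1 library moved these counts to 4352 to 5580, 6226 to 7896 and 5767 to 7425. Of the 53 genes, 50 were called higher at 6 h than at 2 h without 6 h replicate 1, and 51 without 2 h replicate 1. It was 52 without 2 h replicate 3 or without 6 h replicate 2, and 53 without any other single library. The 6 h log2 fold changes against untreated of the 25 genes with the largest ratios, the highest levels or a place in a list kept their direction and their call in all 13 alternatives run (scaling, low-count filter, DESeq2, block and each library left out). The genes were chosen for a rise in this same contrast. Their steady direction and calls, also with the block, therefore follow from the choice and are no separate support. Genes near 2 CPM are limited by depth: the lowest count was 30.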

Other observations

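Without 2 h replicate 2, 36 further genes met the rule, and several had larger 6 h ratios than any of the 53. Bach2, a transcriptional repressor of lymphocytes, stood at 0.801, 1.18 and 0.985 CPM untreated, 1.11, 3.42 and 0.826 CPM at 2 h and 6.89, 7.38 and 8.06 CPM at 6 h, a 6 h ratio of 7.52. Edil3, which encodes an integrin ligand of the extracellular matrix, stood at 2.45, 2.07 and 2.12 CPM untreated, 2.24, 7.80 and 2.46 CPM at 2 h and 16.9, 14.2 and 14.4 CPM at 6 h, a ratio of 6.88. In both, 2 h replicates 1 and 3 were close to the untreated libraries and replicate 2 stood well above them. Arg1, the arginase of alternatively activated macrophages, stood at 2.70, 4.03 and 3.21 CPM untreated, 3.91, 8.88 and 4.53 CPM at 2 h and 13.6, 15.1 and 16.7 CPM at 6 h, and the 2 h ratio was 1.74 with that library and 1.28 without it.

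Among abundant genes of this kind, Xdh, which encodes xanthine dehydrogenase, stood at 144, 130.2 and 127 CPM untreated, 178, 237 and 151 CPM at 2 h and 367, 350.0 and 360.4 CPM at 6 h. Grina stood at 349.7, 345 and 319.5 CPM untreated, 459, 547 and 368 CPM at 2 h and 770.4, 760.4 and 754 CPM at 6 h, with each 2 h library above all untreated ones. These genes were picked after their values were seen, and their values are given as a description.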
